A study of Rattus norvegicus with 6 samples.

Results

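Transcripts of 10 genes of the CXC chemokine system were described in cultured rat cardiac fibroblasts: the ligand genes Cxcl1, Cxcl2, Cxcl3, Cxcl6, Cxcl9, Cxcl10, Cxcl11, Cxcl12 and Cxcl16, and the receptor gene Cxcr4. They were taken by symbol from a table of 30560 genes, and all 10 were found. The list was selected on the FPKM of these same libraries, that is, with the differences between the groups known. These values are therefore given as a description, with no test, and tests are given only for other genes. The fibroblasts came from ventricles of newborn Sprague-Dawley rats of 1 to 2 days, were kept by preferential attachment and were held overnight without serum. Of the 6 cultures sequenced, 3 had been transfected by lipofection with a miR-142-3p antagomiR at 50 nM and 3 with 50 nM of the control, NC. AntagomiRs are modified antisense strands that bind a mature microRNA, and NC is the control as named in the labels. All 6 cultures thus received an oligonucleotide and the transfection reagent, and there was no untransfected group. The labels do not say whether the 3 libraries of a group came from separate cell isolations, so every p-value measures the spread between these libraries, which may be technical.

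With the antagomiR, all 9 ligand transcripts were above every NC library and the receptor transcript Cxcr4 was below every NC library. The list was selected on these differences. Ranges of the groups also did not overlap for 44.6% of the 12024 genes averaging 1 FPKM or more. Cxcl9 and Cxcl11 averaged less, and no NC library held more than 1 fragment of either. The neutrophil chemokine genes Cxcl1, Cxcl2, Cxcl3 and Cxcl6 together went from 2.49 ± 1.26 to 253 ± 26.7 FPKM (SD, n = 3). FPKM is the fragment count of a gene scaled to the gene's length in kilobases and to the library total. The interferon-associated genes Cxcl9, Cxcl10 and Cxcl11 together went from 0.357 ± 0.417 to 3.85 ± 0.696 FPKM. Cxcl12 went from 8.35 ± 0.296 to 16.2 ± 0.843 FPKM and Cxcl16 from 15.4 ± 10.2 to 75.2 ± 1.28 FPKM. Cxcr4 went from 5.89 ± 3.63 to 1.18 ± 0.199 FPKM.

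CXC chemokines are small secreted proteins, named for a pair of conserved cysteines with a single residue between them, that guide leukocytes through G protein-coupled receptors. Ligands with a glutamate-leucine-arginine (ELR) motif ahead of the cysteines, here Cxcl1, Cxcl2, Cxcl3 and Cxcl6, attract neutrophils mainly through Cxcr2, while Cxcl9, Cxcl10 and Cxcl11 attract T cells and natural killer cells through Cxcr3. Cxcl12 is a homeostatic ligand of stromal cells that retains haematopoietic cells through Cxcr4 and is also bound by the atypical receptor Ackr3, and Cxcl16 is made as a membrane-anchored ligand of Cxcr6 that proteases can shed. In the heart, fibroblasts release such ligands after injury, and miR-142-3p is a microRNA best known from haematopoietic cells.

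The mature microRNA that the antagomiR was directed against is shown because it defines the treatment. It is encoded at chr10:73055155-73055177 on the plus strand of GRCr8 in RefSeq, and capitals mark its seed, bases 2 to 8.
rno-miR-142-3p: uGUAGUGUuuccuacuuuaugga

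Sequence just upstream of the start site was compared because most of the ligand genes lie in blocks and were high together. RefSeq promoters of GRCr8, from 250 bases before the start to 50 after it, were at hand for 9 of the 10 genes, Cxcl3 not among them. The consensus of the transcription factor NF-kappa-B, searched on both strands, was found in 5 of the 9, against 4.18% of 33469 rat promoters of this length. These were Cxcl1, Cxcl2, Cxcl6, Cxcl10 and Cxcl11. In Cxcl1, Cxcl2 and Cxcl6 overlapping matches merged into a single run, from -84 to -74, from -74 to -64 and from -88 to -78, counted from the start site. Cxcl10 had its match from -187 to -178 and Cxcl11 from -74 to -65. The interferon-stimulated element GAAANNGAAA was found in Cxcl10 alone among the 9, from -243 to -234, and in 3.92% of all promoters. The TATA box letters TATAAA were in Cxcl10, Cxcl11 and Cxcr4 and in 14.2% of all promoters. They lay from -162 to -157 in Cxcl10, farther from the start site than in Cxcl11, from -41 to -36, and Cxcr4, from -46 to -39. The C/EBP letters TTGCNNAA were in Cxcl2 and Cxcl6 and in 10.6%, and the AP-1 letters TGANTCA in Cxcl10 and Cxcl11 and in 7.33%. No match to 1 motif overlapped a match to another. The windows below lie on chromosome 14 of GRCr8, and capitals mark matches to NF-kappa-B, GAAANNGAAA and TATAAA. They are chr14:17479341-17479421 for Cxcl1, chr14:17467275-17467355 for Cxcl2 and chr14:17596437-17596517 for Cxcl6, all on the minus strand. Cxcl10 at chr14:15988816-15988916 and Cxcl11 at chr14:15973628-15973708 are on the plus strand. The Cxcl10 window runs from -250 to -150 and the others from -100 to -20.
Cxcl1: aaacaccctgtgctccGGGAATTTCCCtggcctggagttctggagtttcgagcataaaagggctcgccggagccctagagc
Cxcl2: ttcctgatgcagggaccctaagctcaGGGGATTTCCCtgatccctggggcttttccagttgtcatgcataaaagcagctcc
Cxcl6: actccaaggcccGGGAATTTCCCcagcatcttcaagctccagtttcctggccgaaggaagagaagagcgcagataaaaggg
Cxcl10: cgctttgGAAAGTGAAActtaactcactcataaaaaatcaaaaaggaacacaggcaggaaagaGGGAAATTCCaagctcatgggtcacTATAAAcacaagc
Cxcl11: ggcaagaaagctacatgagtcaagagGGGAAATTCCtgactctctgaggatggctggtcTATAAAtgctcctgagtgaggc
The Cxcl1 and Cxcl6 windows hold the same run of capitals, and the Cxcl10 and Cxcl11 windows share another. The letters are a description of these windows, and no binding was measured.

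Libraries held between 19472409 and 24622667 fragments, so 3 fragments on a gene of 1 kb amounted to 0.122 to 0.154 FPKM, counting error only. Summed FPKM of 10 fibroblast markers was 11300 to 11400 in NC and 10700 to 11000 with the antagomiR, most of it from 3 collagen genes. Of these 10 markers 6 rose and 2 fell. The sum of the smooth muscle and pericyte markers was 54.3 to 57.7 FPKM in NC and 36.4 to 37.6 FPKM in antagomiR libraries, with 3 of 4 tested down, and that of the cardiomyocyte markers 384 to 426 and 289 to 348 FPKM, with 1 of 5 tested down. Leukocyte transcripts were present too. The sum of 15 leukocyte markers was 148, 215 and 756 FPKM in NC replicates 1, 2 and 3 and 1090, 982 and 1030 FPKM in the antagomiR libraries. NC replicate 3 was the highest NC library for 14 of these 15 markers, and for 9 of the 10 genes described here. None of the 15 was at 0 in all libraries, and of the 14 tested 6 rose and 0 fell by limma (adjusted p under 0.05), where 17.5% and 9.21% of all 12024 tested genes did. Of these 6 calls 4 were lost in at least 1 alternative. Without NC replicate 3 all 14 rose, where 26.5% of all tested genes did. Neutrophil markers summed to 0.0504 to 0.793 FPKM in NC and 0.836 to 1.02 FPKM in antagomiR libraries, with S100a9 and Mpo at 0 in every library. Lymphocyte markers summed to 0 to 0.295 and 0.0438 to 0.304 FPKM, with Cd3e and Ms4a1 at 0. In such bulk cultures, fewer cells of a type and less RNA per cell cannot be told apart. The part of these transcripts in the values below was not tested. For the ligand genes detected in NC and for Cxcr4, differences are given with and without NC replicate 3.

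Of the 10 genes, 8 averaged 1 FPKM or more across all libraries, and Cxcl9 and Cxcl11 did not. Across the 12024 genes that passed this level, limma on log2(FPKM + 1) called 26.7% changed at an adjusted p under 0.05, 17.5% up and 9.21% down. Without NC replicate 3 these shares were 26.5% up and 13.9% down. For the 8 genes described here that passed this level, calls are not given, since the list was selected on this contrast. For all 8 the ranges of the groups did not overlap, as for 44.6% of all tested genes, a count that the selection of the list had set. The median log2 fold change, antagomiR minus NC, was 2.63 for the 8 and 0.06 for all tested genes. The selection of the list had set this difference too, so it is a description only. Cxcl2, Cxcl3, Cxcl6 and Cxcl10 averaged under 1 FPKM in NC and passed the level through the antagomiR libraries. Median-ratio scaling and quantile normalization moved the median of all genes by -0.06 and -0.1, and the share of up among called genes from 65.6% to 51.5% and 43.6%. All 8 kept their direction under both.

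**Figure D1:**
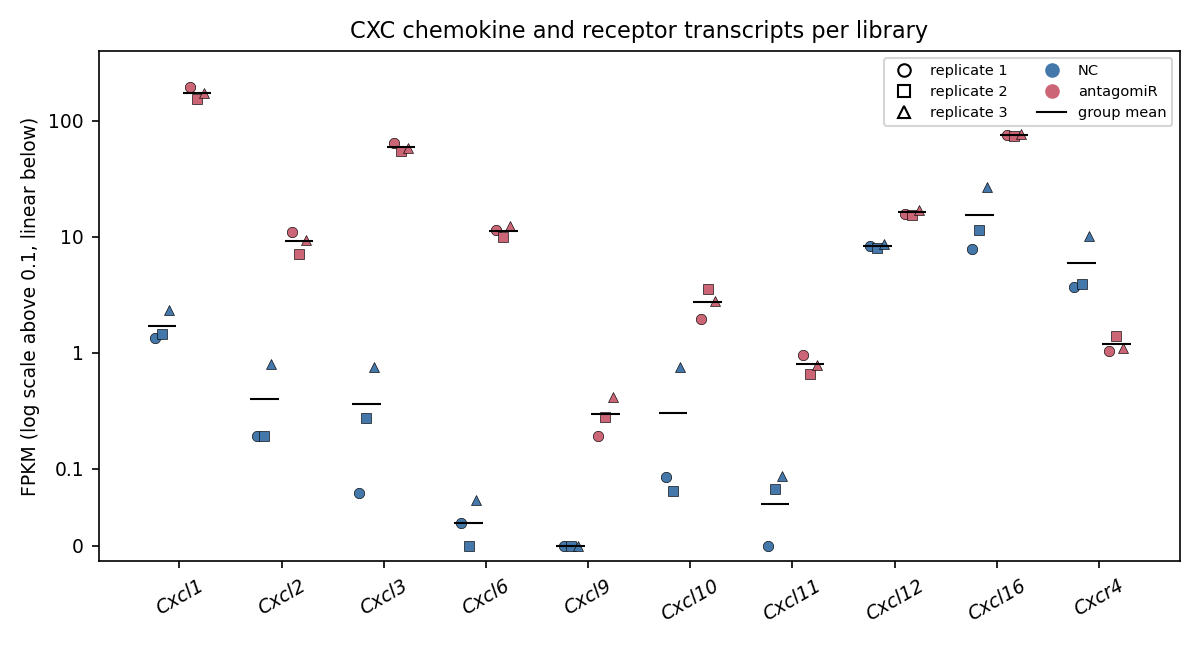
FPKM of the 10 genes in each library, on an axis that is logarithmic above 0.1 and linear below. Circles, squares and triangles are replicates 1, 2 and 3, and bars are group means. The antagomiR libraries lie above all NC libraries for the 9 ligands and below them for Cxcr4, and the NC triangle is the highest NC point for 9 of the 10 genes, with Cxcl9 at 0 in all 3 NC libraries.

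Cxcl1 was the ELR ligand with the highest level in both groups. The gene (ENSRNOG00000002802) is listed in mRatBN7.2 on chromosome 14 from 17193365 to 17195215. Its level was 1.33, 1.44 and 2.33 FPKM in NC replicates 1, 2 and 3, from 26, 35 and 46 fragments. It was 193, 155 and 174 FPKM in the antagomiR replicates, from 4301, 3826 and 3984 fragments. The lowest antagomiR library was thus 66.5 times the highest NC library. The mean went from 1.7 ± 0.547 to 174 ± 19 FPKM, a 102-fold difference, or 126-fold without NC replicate 3. On the log2(FPKM + 1) scale the difference was 6.03 (standard error 0.15), and between 5.93 and 6.19 when any 1 library was left out. Among the 30560 genes ranked by mean FPKM, Cxcl1 stood at place 10859 in NC and at place 356 with the antagomiR.

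Cxcl3 had the next highest antagomiR level of the ELR ligands, from an NC level near the detection floor. Cxcl3 (ENSRNOG00000028043) is listed from 17270146 to 17289511, a span of 19.4 kb on the same chromosome. It had 1, 5 and 11 fragments in the NC libraries, or 0.0684, 0.275 and 0.744 FPKM. With the antagomiR it had 1080, 1010 and 1005 fragments, or 64.7, 54.6 and 58.6 FPKM. The 3 antagomiR libraries were close to each other, while the NC libraries differed several-fold. The mean went from 0.362 ± 0.346 to 59.3 ± 5.1 FPKM, a 164-fold difference that was 346-fold without NC replicate 3. That value rests on 6 NC fragments, for which the ratio of fragments per library total, 324, had an exact 95% interval of 149 to 882. This interval covers counting error only. Its log2 fold change was 5.49 (standard error 0.17). A pseudocount of 1 compresses such values, and with a pseudocount of 0.1 it was 7.3.

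Cxcl2, also known as macrophage inflammatory protein 2, had a lower antagomiR level than Cxcl1 and Cxcl3. Cxcl2 (ENSRNOG00000002792, 17181062 to 17183075) was at 0.192, 0.192 and 0.805 FPKM in NC, from 4, 5 and 17 fragments. With the antagomiR it was at 11, 7.01 and 9.43 FPKM, from 261, 185 and 231 fragments. NC replicate 3 was 4.19 times the mean of the other NC libraries, still far below the lowest antagomiR library. The mean went from 0.396 ± 0.354 to 9.13 ± 1.99 FPKM, a 23-fold difference, or 47.6-fold without NC replicate 3. The latter rests on 9 NC fragments, and the ratio of fragments, 47.2, had an exact 95% interval of 24.7 to 104, for counting error only. This gave a log2 fold change of 2.87 (standard error 0.21), and 4.42 with a pseudocount of 0.1.

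Cxcl6 was all but undetected in NC. Cxcl6 (ENSRNOG00000002843, 17310426 to 17313093) had 1, 0 and 2 fragments in the NC libraries, or 0.03, 0 and 0.0594 FPKM. It had 430, 422 and 484 fragments with the antagomiR, or 11.3, 10 and 12.4 FPKM. No NC library reached the floor of 3 fragments, and the antagomiR libraries spanned a narrow range. The ratio of fragments per library total was 405, with an exact 95% interval of 138 to 1970 that covers counting error only. Without NC replicate 3, and so with 1 NC fragment, it was 838, with an interval of 150 to 3.31e+04. Its log2 fold change of 3.57 (standard error 0.1) rested on the pseudocount, and was 6.47 with a pseudocount of 0.1.

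Within the ELR group, Cxcl1 differed more between the groups than Cxcl2 did. The ratio of Cxcl1 to Cxcl2 FPKM was 6.94, 7.47 and 2.89 in NC replicates 1, 2 and 3 and 17.6, 22.1 and 18.4 with the antagomiR. The ratio of Cxcl1 to Cxcl3 was 19.4, 5.24 and 3.13 in NC, from 1, 5 and 11 Cxcl3 fragments, and 2.98, 2.83 and 2.97 with the antagomiR. The antagomiR libraries thus shared nearly the same Cxcl1 to Cxcl3 ratio, and NC replicate 3 was the NC library closest to it. With so few Cxcl3 fragments in NC, a difference in this ratio between the groups was not resolved. Cxcl1, Cxcl2 and Cxcl3 are related copies. How reads that fit more than 1 of them were counted is not known here, so their relative levels are uncertain.

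The make-up of the ligand transcripts differed between the groups. The ELR genes held 9.02, 8.88 and 9.75% of the summed FPKM of the 9 ligands in NC replicates 1, 2 and 3, and 74.9, 70.6 and 72.2% with the antagomiR. The sum itself was 18, 21.5 and 40.4 FPKM in the NC libraries and 374, 321 and 352 FPKM in the antagomiR libraries, a 13.1-fold difference of means, or 17.7-fold without NC replicate 3. In NC the pool was mostly Cxcl12 and Cxcl16. The share of Cxcl12 was 46.6, 37.5 and 21.4% in NC and 4.23 to 4.87% with the antagomiR, although its own level was higher there. The share of Cxcl16 was 43.9, 53 and 66.8% in NC and 20 to 23.1% with the antagomiR. Cxcl9, Cxcl10 and Cxcl11 stayed a minor share, at most 2.08% in NC and 1.4% with the antagomiR.

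**Figure D2:**
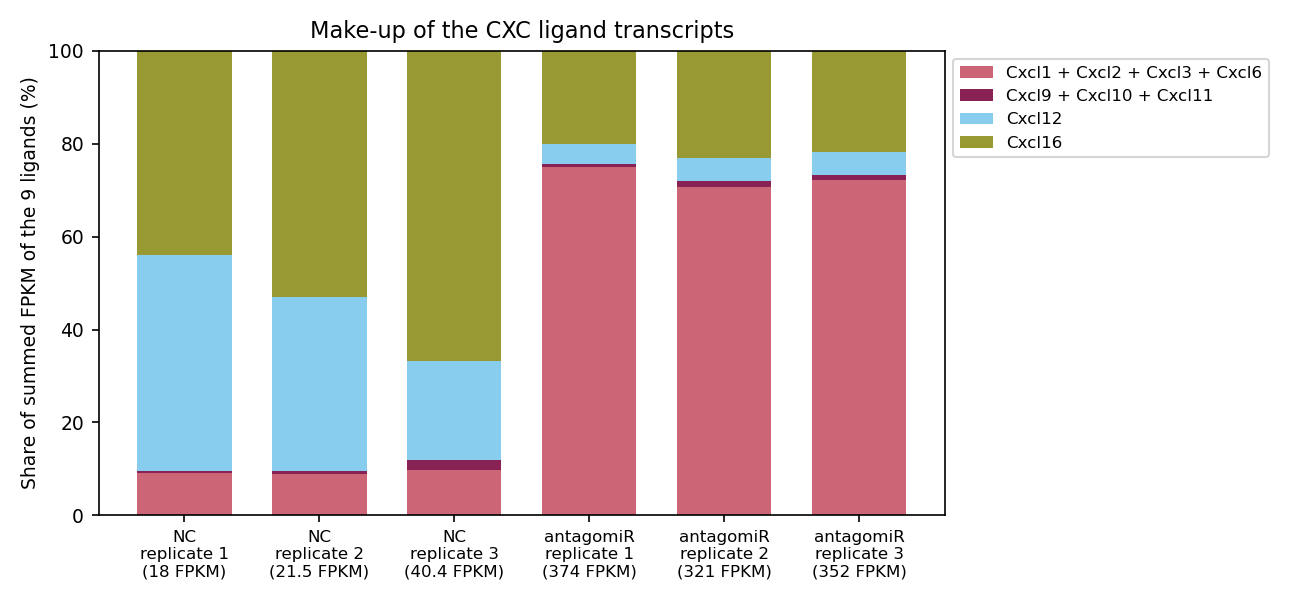
Share of each ligand class in the summed FPKM of the 9 CXC ligand transcripts, as a stacked bar from 0 to 100% per library, with the summed FPKM under each bar. Cxcl12 and Cxcl16 make up most of each NC bar, and the ELR genes take 70.6 to 74.9% of each antagomiR bar.

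Cxcl10, a chemokine known as an interferon-induced protein, was the most abundant of the Cxcr3 ligands with the antagomiR. Cxcl10 (ENSRNOG00000022256) is listed on chromosome 14 from 15704758 to 15706975. It had 2, 2 and 17 fragments in the NC libraries, or 0.089, 0.0715 and 0.748 FPKM, and 50, 101 and 73 fragments with the antagomiR, or 1.95, 3.55 and 2.77 FPKM. NC replicate 3 stood 9.32 times above the mean of the other NC libraries, the widest such gap of the 10 genes. The mean difference was 9.11-fold with all libraries, 34.4-fold without NC replicate 3 and 3.69-fold over NC replicate 3 alone. NC replicates 1 and 2 held only 4 fragments together. The ratio of fragments without NC replicate 3, 35.1, had an exact 95% interval of 13.5 to 130, for counting error only. Its log2 fold change was 1.54 (standard error 0.24), and 1.78 without NC replicate 3.

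Cxcl9 and Cxcl11, the other Cxcr3 ligands, were below the level needed for the fit. Cxcl9 (ENSRNOG00000022242, 15722908 to 15728435) had 0 fragments in every NC library and 5, 8 and 11 with the antagomiR, or 0.192, 0.278 and 0.411 FPKM. Against an assumed floor of 3 fragments over the whole NC group, the ratio of fragments per library total was 7.28, with no interval. Cxcl11 (ENSRNOG00000022298, 15689424 to 15692271) had 0, 1 and 1 fragments in NC and 12, 9 and 10 with the antagomiR. Its level was 0, 0.0732 and 0.0902 FPKM in the NC libraries and 0.959, 0.649 and 0.777 FPKM in the antagomiR libraries. The ratio of fragments was 14.1, with an exact 95% interval of 3.59 to 122 for counting error only, and 19.4 (3.24 to 793) without NC replicate 3. For both genes the groups did not overlap, but the antagomiR levels stayed under 1 FPKM.

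Cxcl12 differed least between the groups, and of the genes detected in NC varied least between its libraries. Cxcl12 (ENSRNOG00000013589), also called stromal cell-derived factor 1, is listed on chromosome 4 from 150388325 to 150401168. It was at 8.37, 8.04 and 8.63 FPKM in NC, from 614, 735 and 641 fragments, and at 15.8, 15.5 and 17.1 FPKM with the antagomiR, from 1323, 1442 and 1474 fragments. NC replicate 3 was 1.05 times the mean of the other NC libraries, so it did not stand apart for this gene. The means differed 1.93-fold, or 1.97-fold without NC replicate 3, and the log2 fold change was 0.87 (standard error 0.06).

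Cxcl16, a ligand that is also a scavenger receptor for oxidised lipoprotein, had the highest mean of the ligands in NC, though in NC replicate 1 it lay below Cxcl12. Cxcl16 (ENSRNOG00000026647) is listed on chromosome 10 from 55166723 to 55171592. Its level was 7.89, 11.4 and 27 FPKM in NC replicates 1, 2 and 3, from 290, 520 and 1002 fragments. It was 74.9, 74.1 and 76.6 FPKM with the antagomiR, from 3140, 3445 and 3305 fragments. The antagomiR libraries were the most alike of any gene described, with a coefficient of variation of 1.7%, while the NC libraries spread widely. The mean difference was 4.88-fold with all libraries, 7.81-fold without NC replicate 3 and 2.79-fold over NC replicate 3 alone. This was a log2 fold change of 2.39 (standard error 0.37), and 2.86 without NC replicate 3. Relative to the mean of NC replicates 1 and 2, Cxcl16 was 0.82, 1.18 and 2.8 in NC and 7.7 to 7.96 with the antagomiR. The leukocyte marker sum, of which Lyz2 was the largest part, was on the same scale 0.816, 1.18 and 4.17 in NC. With the antagomiR it was 5.42 to 6.03. The 2 rankings of the NC libraries were thus the same, and the part of leukocyte transcripts in Cxcl16 was not tested.

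Cxcr4, the receptor through which Cxcl12 signals, was lower with the antagomiR. Cxcr4 (ENSRNOG00000003866) is listed on chromosome 13 from 40077976 to 40081883. Its level was 3.7, 3.89 and 10.1 FPKM in NC, from 123, 161 and 339 fragments, and 1.03, 1.4 and 1.1 FPKM with the antagomiR, from 39, 59 and 43 fragments. The groups did not overlap, and NC replicate 3 was 2.66 times the mean of the other NC libraries. The NC mean was 5 times the antagomiR mean, or 3.22 times without NC replicate 3. Its log2 fold change was -1.54 (standard error 0.32), and -1.14 without NC replicate 3. Relative to the mean of NC replicates 1 and 2, Cxcr4 was at 2.66 in NC replicate 3 and at 0.271 to 0.37 with the antagomiR. The leukocyte marker sum was at 4.17 and at 5.42 to 6.03, and its markers differed. Cd68, Mrc1, C1qa, C1qb and Cd53 were highest in NC replicate 3 of all libraries. Cd163 was all but undetected, and the other markers of that list were highest with the antagomiR. The part of leukocyte transcripts in Cxcr4 was not tested.

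**Figure D3:**
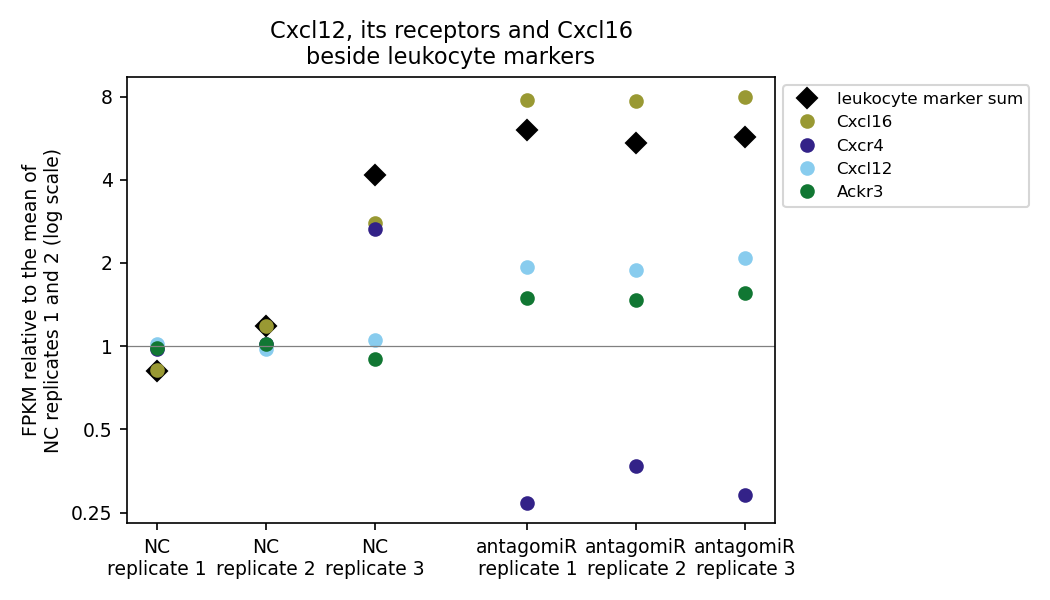
FPKM of Cxcl12, Cxcl16, Cxcr4, Ackr3 and the sum of the leukocyte markers in each library, relative to the mean of NC replicates 1 and 2 and on a log scale. In NC replicate 3 Cxcl16, Cxcr4 and the marker sum lie between 2.66 and 4.17 while Cxcl12 and Ackr3 stay near 1, and in the antagomiR libraries only Cxcr4 lies below 1.

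Ackr3, the atypical receptor that binds and removes Cxcl12, was the only other CXC-binding receptor with a level high enough to test. It was at 6.58, 6.78 and 6.02 FPKM in the NC libraries and at 9.96, 9.84 and 10.4 FPKM in the antagomiR libraries. It rose by 0.57 on the log2 scale (standard error 0.07, limma adjusted p = 0.00108). The ratio of Ackr3 to Cxcr4 was 1.78, 1.75 and 0.598 in NC and 9.69, 7.01 and 9.48 with the antagomiR. The ratio of Cxcl12 to Cxcr4 was 2.26, 2.07 and 0.857 in NC and 15.4, 11.1 and 15.5 with the antagomiR. In each case the antagomiR libraries were above all NC libraries.

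The receptors for the other ligands were at or near 0. Cxcr1 was at 0 in all 6 libraries, and Cxcr2, through which the ELR ligands act, was at 0 to 0.0444 FPKM. Cxcr3, the receptor of Cxcl9, Cxcl10 and Cxcl11, reached at most 0.0709 FPKM, and Cxcr6, the receptor of Cxcl16, at most 0.0284 FPKM. Cxcr5, the receptor of Cxcl13, reached 0.228 FPKM, and the scavenging receptors Ackr1 and Ackr2 reached 0.451 and 0.0259 FPKM. Ackr1 was at 0.0588, 0.0472 and 0.116 FPKM in NC and at 0.155, 0.233 and 0.451 FPKM in the antagomiR libraries.

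The order of the 10 genes by level differed between the groups. In NC the order was Cxcl16 at 15.4, Cxcl12 at 8.35, Cxcr4 at 5.89 and Cxcl1 at 1.7 FPKM. Ranges of neighbours among the first 3 overlapped, so their order was not resolved, while Cxcl1 lay below them and above the rest. The remaining genes, Cxcl2 at 0.396, Cxcl3 at 0.362, Cxcl10 at 0.303, Cxcl11 at 0.0545, Cxcl6 at 0.0298 and Cxcl9 at 0 FPKM, overlapped with their neighbours. With the antagomiR the order was Cxcl1 at 174, Cxcl16 at 75.2, Cxcl3 at 59.3, Cxcl12 at 16.2, Cxcl6 at 11.2, Cxcl2 at 9.13, Cxcl10 at 2.76, Cxcr4 at 1.18, Cxcl11 at 0.795 and Cxcl9 at 0.294 FPKM. There Cxcl6 and Cxcl2 overlapped and no other neighbours did.

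CXC ligand genes outside the list did not all behave like those in it. Pf4, platelet factor 4, was at 5.25, 9.18 and 26.2 FPKM in the NC libraries and at 29.9, 24.9 and 25.5 FPKM in the antagomiR libraries. Its NC replicate 3 lay within the antagomiR range, and its log2 fold change of 1.21 (standard error 0.48) was not called (limma adjusted p = 0.107). It was 1.8 when NC replicate 3 was left out, and was then called up. Cxcl14, a chemokine of epithelia and fibroblasts, had 1, 1 and 32 fragments in the NC libraries and 3, 4 and 3 with the antagomiR, so NC replicate 3 was the highest library by far. Cxcl13, the B-cell attractant, had 2, 3 and 0 fragments in NC and 19, 12 and 13 with the antagomiR, or at most 0.787 FPKM. Ppbp was at 0 in every library, and Cxcl17 stayed near 0. Cxcl5 was not analysed here.

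The 7 ligand genes of chromosome 14 lie in 2 blocks that are 1.45 Mb apart. Cxcl11, Cxcl10 and Cxcl9 follow each other with gaps of 12.5 and 15.9 kb, and Cxcl2, Cxcl1, Cxcl3 and Cxcl6 with gaps of 10.3, 74.9 and 20.9 kb. Within 250 kb of any of the 10 genes the table lists 72 other genes, of which 31 were tested. Of these, 7 rose and 0 fell by limma, where 17.5% and 9.21% of all tested genes did. In the ELR block none of the 4 tested neighbours was called by limma with all libraries. Without NC replicate 3 Pf4 was called up and ENSRNOG00000039504 down (-0.46, adjusted p = 0.0351), and with voom Pf4 was called up (adjusted p = 0.0423). Pf4, whose end is 11.1 kb from the start of Cxcl6, had a log2 fold change of 1.21. The growth factor gene Ereg was at 0.15 (adjusted p = 0.689), the folate enzyme gene Mthfd2l at 0.27 (adjusted p = 0.168) and ENSRNOG00000039504 at -0.31 (adjusted p = 0.215). Log2 fold changes of the ELR genes in the same stretch were between 2.87 and 6.03.

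**Figure D4:**
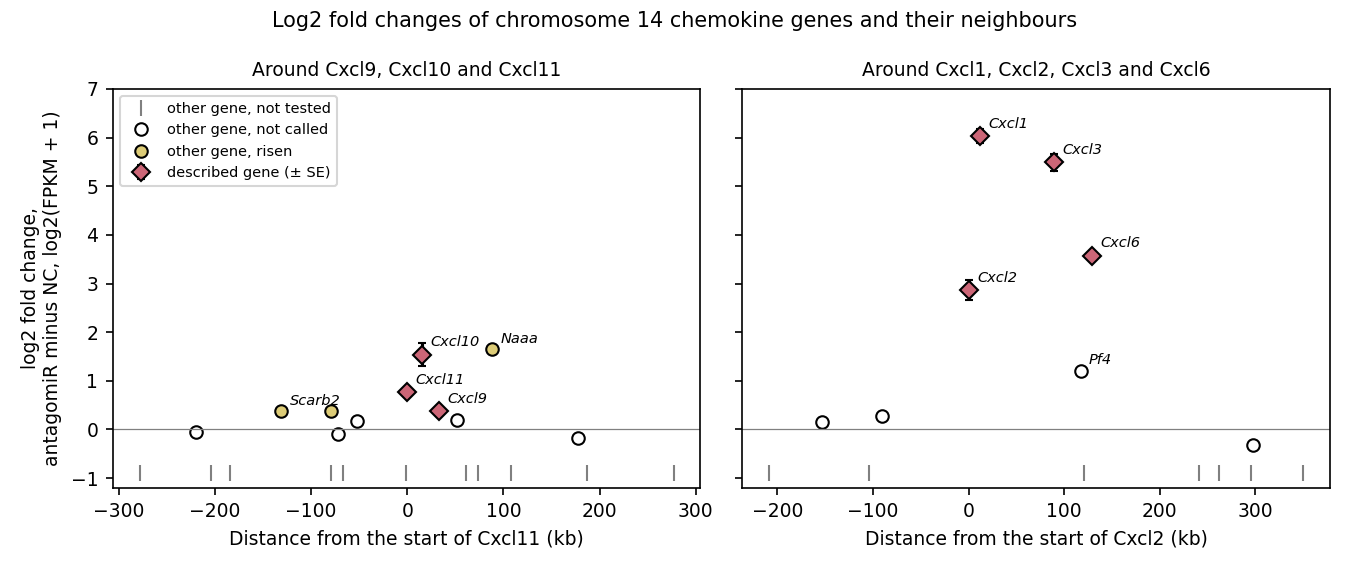
Log2 fold changes, antagomiR minus NC, of the chromosome 14 chemokine genes (diamonds, with standard errors) and of the other genes within 250 kb (circles), against distance in kb from the start of Cxcl11 on the left and of Cxcl2 on the right. Ticks at the bottom are genes below the level tested. The ELR genes stand between 2.87 and 6.03, and the highest of the other genes beside them is Pf4 at 1.21.

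In the block of Cxcl9, Cxcl10 and Cxcl11, 3 of 8 tested neighbours rose. Naaa, which encodes a lysosomal amidase, rose by 1.65 on the log2 scale (standard error 0.35, limma adjusted p = 0.0126). The call was lost without NC replicate 2 (log2 fold change 1.5), without antagomiR replicate 2 (1.6) or without antagomiR replicate 3 (1.56), and without NC replicate 3 the log2 fold change was 2.08. Scarb2, a lysosomal membrane receptor gene, and ENSRNOG00000065188 each rose by 0.38 (adjusted p = 0.00938 and 0.00856). Beside Cxcl16, 3 of 17 tested neighbours rose, a share near the 17.5% of all tested genes. They were Alox12, Rnf167 and Arrb2, which encodes a beta-arrestin that uncouples chemokine receptors and ends 11.9 kb from the start of Cxcl16. The lipoxygenase gene Alox12 rose by 1.72 (2.09 without NC replicate 3) and the ubiquitin ligase gene Rnf167 by 0.39 (adjusted p = 0.00564 and 0.00536). Beside Cxcr4, the replication gene Mcm6 rose by 0.89 (adjusted p = 0.00116), opposite in direction to Cxcr4. The 2 neighbours of Cxcl12 in the table were below the level tested. Without NC replicate 3, 9 of the 31 tested neighbours rose and 3 fell, where 26.5% and 13.9% of all tested genes did.

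Other genes of the chemokine pathway were read from 7 lists of 83 genes, of which 80 were in the table and 64 were tested. Of the 64, 37 rose and 2 fell, where 17.5% and 9.21% of all tested genes did. Their median log2 fold change was 0.46, against 0.06 for all tested genes. Without NC replicate 3, 44 rose and 2 fell, where 26.5% and 13.9% of all tested genes did. Genes of the lists outside the table were not analysed here. The lists had been written with earlier results of these data known, so their direction is no independent evidence.

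Among 16 tested transcription factors of chemokine genes and regulators of such factors, 15 rose and 0 fell. Of all tested genes, 17.5% rose and 9.21% fell. The count that rose in this list went down to 13 in some alternatives, among them quantile normalization and the replicate block. The median log2 fold change of the 16 was 1.12. The exception was Irf3, an interferon regulatory factor, at -0.02. Nfkbia, which encodes an inhibitor of NF-kappa-B and is not itself a transcription factor, was among those that rose, at 2.04 (limma adjusted p = 0.000251). Nfkbiz, which encodes a nuclear co-activator of NF-kappa-B, went from 3.41, 3.15 and 3.1 FPKM in NC to 21.7, 21.2 and 21 FPKM with the antagomiR. It rose by 2.40 (limma adjusted p = 1.9e-06), with NC replicate 3 no higher than the other NC libraries. Bcl3, another co-regulator of NF-kappa-B, rose by 2.39 (adjusted p = 0.000205), and the C/EBP factors Cebpd and Cebpb rose by 2.10 and 1.12 (adjusted p = 4.46e-05 and 0.0022). Irf7, a factor of the interferon response, was at 2.79, 8.65 and 23.3 FPKM in the NC libraries and at 87.9, 89 and 80.9 FPKM in the antagomiR libraries. It rose by 3.18 (standard error 0.59, adjusted p = 0.00765), or by 3.84 without NC replicate 3, its NC libraries being spread as those of Cxcl16 were.

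Among 14 tested receptors and sensors for the cytokines and microbial products that induce chemokines, 11 rose and 1 fell. Il1r1, the interleukin-1 receptor gene, went from 44.4, 40.6 and 42.4 FPKM to 101, 105 and 105 FPKM, a rise of 1.27 on the log2 scale (limma adjusted p = 1.96e-05). Ifngr1, a chain of the interferon gamma receptor, rose by 1.40 (adjusted p = 0.000292) and the tumour necrosis factor receptor gene Tnfrsf1b by 1.5 (adjusted p = 0.00116). Tlr2, which senses bacterial lipoproteins, went from 0.471, 0.887 and 1.98 to 14.8, 15.9 and 15.1 FPKM and rose by 3.01 (adjusted p = 0.000219). The gene that fell was Il1rap, the accessory chain of the interleukin-1 receptor, at -0.40 (adjusted p = 0.0193), a call lost without NC replicate 2 or without any 1 antagomiR library.

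Among 11 tested regulators of cytokine mRNA stability, 2 rose and 1 fell, shares near the 17.5% and 9.21% of all tested genes. Without NC replicate 3, 4 rose, where 26.5% of all tested genes did, and with voom 4 rose. Zc3h12a, which encodes the endonuclease regnase-1 that degrades cytokine mRNA, went from 5.09, 5.56 and 5.45 to 41.1, 43.9 and 44.9 FPKM. It rose by 2.80 (limma adjusted p = 1.17e-06). The AU-rich element binding genes Zfp36l1 and Zfp36 moved in opposite directions, Zfp36l1 up by 1.27 (adjusted p = 4.46e-05) and Zfp36 down, at -0.49 (adjusted p = 0.00079).

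Of 6 tested proteases that cut or shed chemokines, 4 rose and 0 fell. Adam17, a sheddase of membrane proteins, rose by 0.60 (limma adjusted p = 0.00126), and Adam10, the other such sheddase, was at 0.18 (adjusted p = 0.252). Mmp2, a gelatinase that can cleave Cxcl12, was abundant in both groups and rose by 0.44 (adjusted p = 0.00219), whereas Mmp14 was at 0.02 (adjusted p = 0.844). Mmp9, the other gelatinase, was at 0.396, 0.567 and 2.42 FPKM in the NC libraries and 6.83, 6.88 and 7.42 FPKM in the antagomiR libraries, and rose by 2.04 (adjusted p = 0.00364), or by 2.44 without NC replicate 3. Anpep, an aminopeptidase, rose by 1.31 (adjusted p = 0.0465), and it was no longer called with a pseudocount of 0.1 (1.45), without the filter or the trend, after median-ratio scaling (1.25), after quantile normalization (1.21) and without any 1 library other than NC replicate 3 (0.99 to 1.33).

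Of 15 tested genes of receptor signalling and desensitisation, 4 rose and 0 fell. The median was 0.15. Pik3cg, the phosphoinositide 3-kinase subunit activated by chemokine receptors in leukocytes, went from 0.826, 1.02 and 2.67 to 13.4, 15.2 and 15 FPKM and rose by 2.70 (limma adjusted p = 0.000415). The beta-arrestin genes Arrb2 and Arrb1 rose by 1.38 and 1.02 (adjusted p = 0.0109 and 0.0249), or by 1.74 and 1.34 without NC replicate 3, and the call of Arrb1 was lost without the filter and without any 1 library other than NC replicate 3. The abundant G protein genes Gnai2 and Gnb1 were at 0.15 and -0.11 (adjusted p = 0.199 and 0.112). Without NC replicate 3 the count that rose in this list was 7 of 15, where 26.5% of all tested genes rose. Without any other 1 library it was 2.

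**Figure D5:**
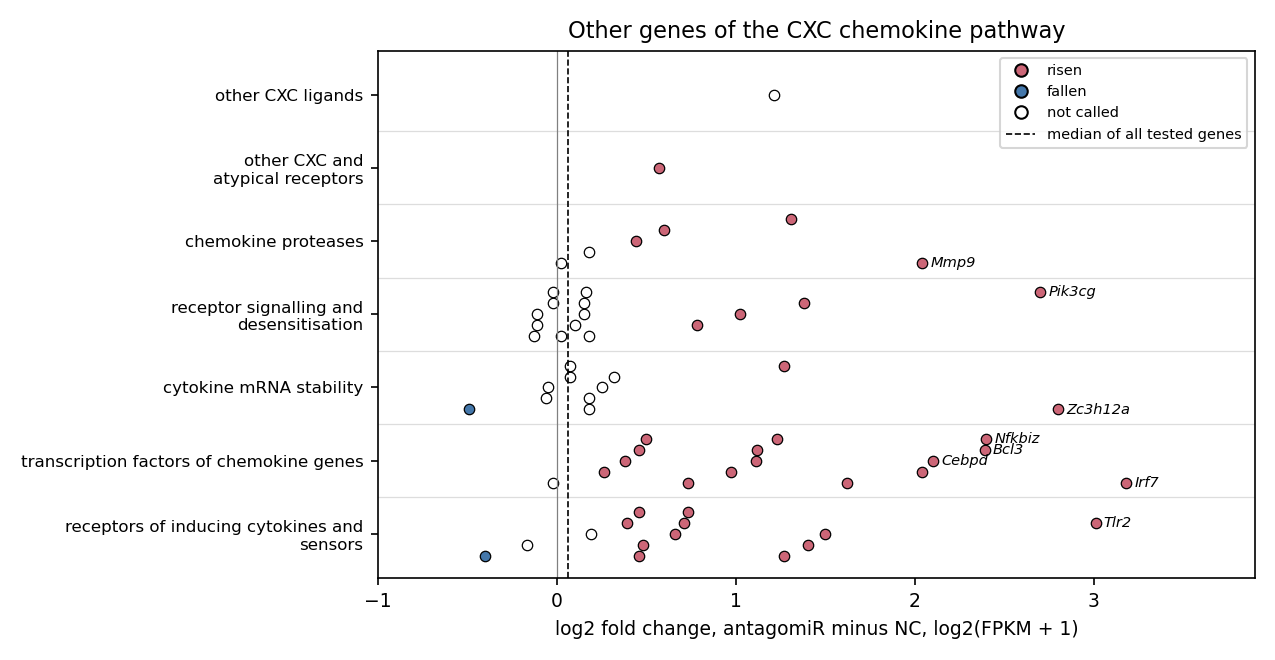
Log2 fold changes, antagomiR minus NC, of the tested genes of the 7 pathway lists, 1 row per list and 1 point per gene, filled where limma called them. The dashed line is the median of all tested genes, 0.06. The filled points to its right include 15 of 16 transcription factors and their regulators and 11 of 14 cytokine receptors and sensors.

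For 4 of the genes, the tested genes with the most similar profile were found by the root mean square difference of log2(FPKM + 1) over the 6 libraries, each gene centred on its own mean. Closest to Cxcl1 were Lcn2, at 0.206, and Ccl7 and Pla2g2a, both at 0.37. Closest to Cxcl10 were C3ar1 at 0.109, Slamf8 at 0.122 and Oas2 at 0.136, genes in which NC replicate 3 was also the highest NC library. Closest to Cxcl12 were Trib1 at 0.0322, Cygb at 0.0399 and ENSRNOG00000002618 at 0.0536, genes whose NC libraries lay close together, as its own did. Closest to Cxcr4 were Mir324 at 0.235, a short feature whose value is uncertain, Apoe at 0.258 and Fam43b at 0.313. Apoe, an apolipoprotein gene, was at 124, 158 and 455 FPKM in the NC libraries and at 74.4, 57.8 and 64.2 FPKM in the antagomiR libraries, so it shared with Cxcr4 both the high NC replicate 3 and the low antagomiR level.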

How the data were processed

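PolyA-selected RNA of 6 cultures was sequenced as paired reads, per the labels' protocols. The deposited values are FPKM made by the authors, on mRatBN7.2, and the tools in the submitters' processing notes are HISAT2, HTSeq, edgeR, cutadapt and FastQC. The order of these steps and the strand setting are not given in the sources used here, so overlapping and antisense genes cannot be told apart. Columns were assigned by name to the 6 labelled samples.

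Fragment counts were recovered from the FPKM steps: for 100% of 20134 genes above 0 all 6 values came out whole within 0.01, covering at least 99.66% of each library total. Replicates differed beyond sampling noise (chi-square per degree of freedom from 3.82 to 35.24), so none was counted as a repeat. Limma 3.58.1 in R 4.3.3 (lmFit, eBayes with trend) was run on log2(FPKM + 1) of the 12024 genes averaging 1 FPKM or more, two-sided, with Benjamini-Hochberg adjustment over all of them and no block. Both scripts were tested on simulated data. Cxcl9 and Cxcl11 were below this filter.

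The genes, the pathway and marker lists and the motifs were chosen with earlier results of these data known. Genes named besides the 10 were set by rule: up to 2 of the highest mean FPKM and up to 3 called genes of the largest change per list, all other CXC ligands and receptors, called neighbours, and the 3 nearest profiles of 4 genes. Irf3, Nfkbia, Il1rap, Adam10, the leukocyte and cardiomyocyte markers named singly and the uncalled neighbours Ereg, Mthfd2l and ENSRNOG00000039504 were added after their values were seen. Alternatives were pseudocounts, filters, scalings, no trend, a replicate block, limma voom on the recovered fragments, and leaving out each library.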

Additional observations from a re-analysis of the deposited data

How the results depend on the processing

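Over all 12024 genes, 2109 were called up and 1107 down. Leaving out each library in turn moved these counts to between 1216 and 3185 up and between 667 and 1677 down, the highest of both without NC replicate 3. Quantile normalization called 1842 down. With a replicate block 2380 were called, 1571 up and 809 down, and 35 pathway genes up instead of 37. Deviations of equally numbered libraries correlated at -0.16, -0.06 and -0.04 and those of unequal numbers at -0.06 to 0.13. With only 3 libraries per group, the deviations within a group are not independent of each other. These correlations therefore cannot decide whether the replicate numbers pair the libraries. The count of pathway genes called down was 1 to 2 when a library was left out. The count of neighbouring genes called down, 0 in the fit reported, was 1 (Uso1) after median-ratio scaling, 2 (Uso1 and Pld2) after quantile normalization and 0 to 3 when a library was left out. The cause was not tested for these counts. For 8 of the genes described, 97 of the alternative values stayed within 1 standard deviation of the replicates, 12 moved further and 0 reversed. Those with a pseudocount of 0.1 or voom were larger, 7.67 for Cxcl3 and 8.41 for Cxcl6 with voom. For named pathway and neighbouring genes 394 alternative values kept direction and call, 19 lost and 4 gained the call, and 0 reversed. Fewer than 10 fragments lay behind the NC values of Cxcl6, Cxcl9 and Cxcl11 and, in NC replicates 1 and 2, of Cxcl2, Cxcl3 and Cxcl10, so depth limits the size of these differences.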
